A study of Mus musculus with 2 samples.

Results

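The 5 genes described here, Ccl1, Ccl3, Ccl4, Ccl5 and Ccl9, encode CC chemokines and lie on mouse chromosome 11. They were chosen by name from the 32285 genes of the deposited matrices, and all 5 were found and detected in both libraries. The data are single-cell RNA sequencing of CD8 T cells from mesenteric lymph nodes of C57/B6N mice, cultured with a Th17 cytokine kit to give interleukin-17-producing (Tc17) cells and then stimulated again with 100 ng/ml PMA and 10 μg/ml ionomycin for 3 h. 1 library came from mice with floxed Nfatc1 alleles and Cd4-Cre (Nfatc1 f/f x Cd4-Cre), in which Cre is active in all T cells that have passed through the CD4-expressing thymic stage, and the other from wild-type mice, the control group. The labels name no age and no number of mice. Each group is a single library, so no test was run and no difference could be checked against replicates. The 95% intervals hold counting error alone and leave out variation among mice, cultures and cells.

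CC chemokines are small secreted proteins that attract leukocytes through G-protein-coupled receptors. Ccl3 (MIP-1α) and Ccl9 (MIP-1γ) bind Ccr1, Ccl5 (RANTES) binds Ccr1 and Ccr3, and Ccl1 binds Ccr8; Ccl4 is also known as MIP-1β. Activated CD8 T cells are a known source of Ccl3, Ccl4 and Ccl5, which they release with interferon gamma; Ccl9 is best known from mouse macrophages, dendritic cells and osteoclasts, and Ccl1 from activated T cells and mast cells. Calcium-activated NFAT factors, AP-1 and NF-κB take part in the induction of several of these genes.

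In mm10 coordinates (GENCODE M21), Ccl5 (ENSMUSG00000035042, 83525778 to 83530518, minus strand), Ccl9 (ENSMUSG00000019122, 83572919 to 83578636, minus strand), Ccl3 (ENSMUSG00000000982, 83647844 to 83649355, minus strand) and Ccl4 (ENSMUSG00000018930, 83662584 to 83664683, plus strand) follow one another within 138906 bp of chromosome 11. Ccl3 and Ccl4 are the closest pair, 13228 bp apart and on opposite strands. Ccl1 (ENSMUSG00000020702, 82176657 to 82305690, minus strand) lies 1220087 bp before Ccl5, and no other annotated gene overlaps any of the 5.

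Promoter windows, from 250 bases before to 50 after the gene start, were at hand for Ccl1, Ccl3 and Ccl9 (RefSeq, GRCm38.p6, minus strand, printed 5′ to 3′ of the gene). They are shown because the cells had been stimulated through the calcium pathway that activates NFAT. Capitals mark matches to the NFAT core GGAAA, the AP-1 motif TGANTCA and the TATA box TATAAA, each searched on both strands. The windows are chr11:82179763-82180062 for Ccl1, inside the GENCODE span of that gene, chr11:83649329-83649628 for Ccl3 and chr11:83578587-83578886 for Ccl9.
Ccl1: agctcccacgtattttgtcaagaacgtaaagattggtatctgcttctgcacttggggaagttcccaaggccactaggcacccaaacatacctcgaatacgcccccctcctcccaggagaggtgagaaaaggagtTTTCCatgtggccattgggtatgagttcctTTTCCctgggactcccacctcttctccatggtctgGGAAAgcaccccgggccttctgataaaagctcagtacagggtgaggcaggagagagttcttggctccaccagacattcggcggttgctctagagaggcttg
Ccl3: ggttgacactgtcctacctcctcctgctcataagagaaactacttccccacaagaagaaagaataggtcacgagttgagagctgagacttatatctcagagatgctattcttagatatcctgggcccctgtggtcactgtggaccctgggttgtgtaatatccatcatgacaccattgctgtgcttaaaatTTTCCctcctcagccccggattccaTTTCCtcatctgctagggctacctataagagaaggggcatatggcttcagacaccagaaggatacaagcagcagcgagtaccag
Ccl9: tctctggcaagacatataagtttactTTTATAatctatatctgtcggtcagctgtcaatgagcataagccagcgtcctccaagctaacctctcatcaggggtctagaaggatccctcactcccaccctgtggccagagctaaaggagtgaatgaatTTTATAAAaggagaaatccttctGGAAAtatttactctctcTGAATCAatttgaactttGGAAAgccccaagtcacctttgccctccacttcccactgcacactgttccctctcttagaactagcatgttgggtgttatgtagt
The NFAT core was found 3 times in the Ccl1 window, beginning at positions -116, -86 and -51 from the gene start, and 2 times each in the Ccl3 window (-59 and -34) and the Ccl9 window (-71 and -35). Of 32851 promoters of the same length in the table, 61.3% held it at least once, 26.7% at least 2 times and 9.42% at least 3 times. The AP-1 motif was found only in the Ccl9 window among these 3, as TGAATCA at -53, between its NFAT cores, and 7.81% of all promoters held it. The TATA motif matched 3 times in the Ccl9 window, at -224, -94 and -92, the last 2 overlapping on opposite strands; 13.6% of all promoters held it. These are letter matches and not measured binding sites.

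After filtering, the Nfatc1-deficient-labelled library held 709 cells with a median of 21436 UMIs (17898193 in all) and the wild-type-labelled library 1018 cells with a median of 20906 UMIs (24452538 in all), and they shared 0 cell barcodes. Each library carried its own main multiplexing tag, which took 91.9% and 87.7% of tag counts. Nfatc1 itself stood at 136 CPM (UMIs of a gene per 1000000 UMIs of the library) in the deficient-labelled and 39.8 CPM in the wild-type-labelled library, 3.42-fold apart (3.17 to 3.68) and against the genotype label; which exons were floxed is not given, a 3′ tag outside them would not report a deletion, and every direction below rests on the labels. Cd3d was found in 97.2% and 98.5% of cells and Cd8b1 in 96.5% and 96.6%, whereas Cd4 was found in 0.564% and 0.295%. The kit counts 1 UMI per captured 3′ end, so levels are not divided by gene length.

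All 5 chemokine genes were higher in the deficient-labelled library, and their order, Ccl4, Ccl3, Ccl1, Ccl5, Ccl9, was the same in both libraries. Together they took 4.40% of all UMIs there and 0.736% in the wild-type-labelled library, and Ccl4 made up 81.5% and 87.4% of those UMIs. All 5 were at least 2-fold higher among genes of at least 20 CPM in 1 library, a rule that called 2.27% of the 5584 genes tested in this direction and 2.08% in the other. The median log2 ratio was 3.17 over the 5 genes and 0.03 over all genes tested. The genes were chosen with these levels known, so nothing is read from the count.

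Ccl4 was the most abundant gene of the deficient-labelled library, at 35809 CPM, and ranked 12 in the wild-type-labelled library, at 6435 CPM, a 5.56-fold difference (5.53 to 5.60). Ccl3 ranked 5 and 150, at 7429 and 825 CPM, a 9.00-fold difference (8.87 to 9.14). Per cell, the median Ccl4 count was 607 UMIs (quartiles 116 and 1509) in the deficient-labelled and 30 UMIs (quartiles 5 and 163) in the wild-type-labelled library, and that of Ccl3 was 55 UMIs (quartiles 1 and 273) and 1 UMI (quartiles 0 and 7). The medians of both genes thus differed between the libraries, and not only their highest cells.

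To set shares of cells side by side, each cell was thinned to 5000 UMIs, which kept 698 deficient-labelled and 1004 wild-type-labelled cells. Ccl4 was then found in 93.4% (91.3 to 95.1) and 84.8% (82.4 to 86.9) of cells, and at 5 or more UMIs in 83.2% and 55.0%. Ccl3 was found in 72.3% (68.9 to 75.6) and 39.7% (36.7 to 42.8), and at 5 or more UMIs in 58.9% and 17.2%. At 100 or more UMIs, that is at least 2% of a cell's transcripts, Ccl4 had 420 cells of 698 in the deficient-labelled library and 110 of 1004 in the wild-type-labelled one, and Ccl3 had 73 and 3 cells. Without thinning, at least 1 Ccl4 UMI was present in 99.3% and 98.2% of cells and at least 1 Ccl3 UMI in 84.6% and 66.9%.

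**Figure D1:**
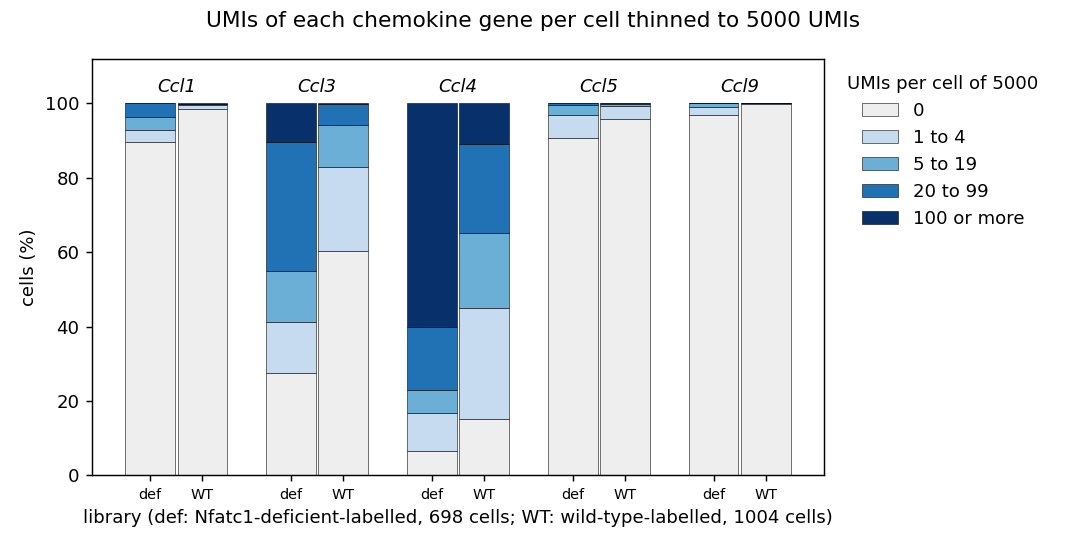
Percent of cells (vertical axis) by UMIs of each gene per cell thinned to 5000 UMIs, for the Nfatc1-deficient-labelled (def, left of each pair) and the wild-type-labelled (WT) library; darker parts of a bar are higher counts. Ccl4 is above 0 in most cells of both libraries, with 420 of 698 and 110 of 1004 cells at 100 or more UMIs. Ccl3 is at 0 in 193 of 698 and 605 of 1004 cells, and Ccl1, Ccl5 and Ccl9 are at 0 in most cells of both libraries.

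Free RNA can place single UMIs of such abundant genes in cells that do not make them. A class of cells to measure this in was looked for and not found: 0 deficient-labelled and 1 wild-type-labelled cells had no UMI of Tnf, Il2, Ifng, Il17a, Il17f and Xcl1, and 0 cells of either library had 3 or more B-cell markers. Shares at 1 UMI therefore have no measured background, the part of free RNA in them was not tested, and shares at 5 or more UMIs are given beside them.

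The other 3 genes were found in few cells. Ccl5 had 1911 UMIs (107 CPM) in the deficient-labelled and 854 UMIs (34.9 CPM) in the wild-type-labelled library, 3.06-fold apart (2.82 to 3.32), and was found in 9.46% (7.39 to 11.9) and 4.28% (3.12 to 5.73) of thinned cells. At 5 or more UMIs it was found in 3.30% and 0.797%. Its level depended on few cells: the top 1% of thinned cells, 7 and 11 cells, held 42.5% and 74.2% of its UMIs, and the highest wild-type-labelled cell, with 221 UMIs, held 25.9% of that library's total before thinning. Without the highest cell of each library Ccl5 stood at 97.1 and 25.9 CPM, 3.74-fold apart (3.42 to 4.11), and without the highest 10 at 57.7 and 10.8 CPM, 5.33-fold apart (4.65 to 6.13).

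Ccl1 had 10442 UMIs (583 CPM) in the deficient-labelled and 1544 UMIs (63.1 CPM) in the wild-type-labelled library, 9.24-fold apart (8.76 to 9.75). It was found in 72 of 698 (10.3%, 8.16 to 12.8) and 15 of 1004 thinned cells (1.49%, 0.839 to 2.45), and at 5 or more UMIs in 50 and 5 cells. A single wild-type-labelled cell carried 800 Ccl1 UMIs, 51.8% of that library's total, and the next cells carried 289, 209, 142 and 27. In the deficient-labelled library the highest cells carried 608, 526, 516, 503 and 495 UMIs, and 13 cells held 50% of the total. The fold depended on few wild-type-labelled cells. Without the highest cell of each library Ccl1 stood at 553 and 30.5 CPM (18.1-fold, 16.8 to 19.6), without the highest 3 at 497 and 10.1 CPM (49.2-fold, 43.4 to 56.1), and without the highest 10 at 340 and 2.03 CPM (167-fold, 126 to 227). Among cells that carried it in thinned data the median was 12.5 UMIs in the deficient-labelled and 1 UMI in the wild-type-labelled library.

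Ccl9 had 639 UMIs (35.7 CPM) in the deficient-labelled and 10 UMIs (0.409 CPM) in the wild-type-labelled library, an 87.3-fold difference (47.2 to 183). Its UMIs lay in 29 of 709 cells, the highest with 135, 101 and 61 UMIs, against 6 of 1018 cells, of which 1 had 5 UMIs and the other 5 had 1 each. At 5 or more UMIs it was seen in 15 deficient-labelled cells and in that single wild-type-labelled cell before thinning. In thinned cells it was found in 3.30% (2.10 to 4.90) and 0.299% (0.0617 to 0.871), and at 5 or more UMIs in 7 of 698 and 0 of 1004 cells; the count of 0 allows a share of up to 0.367% (exact). Without the 3 highest cells of each library Ccl9 stood at 19.3 and 0.123 CPM (157-fold, 53.1 to 763), and without the 10 highest at 4.58 and 0 CPM (80 and 0 UMIs), where the exact interval has only a lower bound, 29.3-fold.

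**Figure D2:**
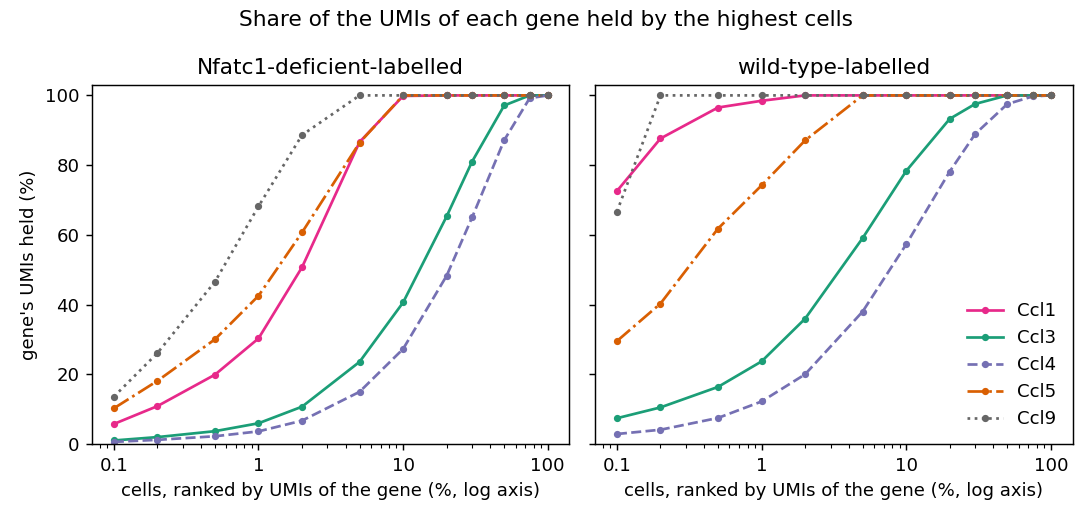
Percent of the UMIs of each gene (vertical axis) held by the highest cells, as a percent of all thinned cells (horizontal log axis), in the Nfatc1-deficient-labelled (left) and wild-type-labelled (right) library. The top 1% of cells held 3.69% and 12.3% of Ccl4 UMIs, 6.01% and 23.7% of Ccl3 UMIs, 42.5% and 74.2% of Ccl5 UMIs, 30.3% and 98.5% of Ccl1 UMIs and 68.2% and 100% of Ccl9 UMIs.

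The wild-type-labelled cell that led for Ccl5 led for several of the others. With 54307 UMIs it carried the highest counts of Ccl3 (1410), Ccl4 (4081), Ccl5 (221) and Ccl9 (5), and it ranked 3 for Ccl1 (209). The 5 genes made up 10.9% of its transcripts. It also had 2558 Ifng and 680 Gzmb UMIs and 1 Il17a UMI, 92.0% of its tag counts were of the main tag, and Scrublet did not call it a doublet. Its depth was 2.60 times the median. Beside 16 Cd8b1 UMIs it carried the myeloid marker Fcer1g, found in 5 of all 1018 cells, and Zbtb46, Klri2 and Kit, found in 40, 92 and 696. The source of these markers was not tested. In the deficient-labelled library a cell of 100839 UMIs, 4.70 times the median depth, led for Ccl1 (608), Ccl3 (1721) and Ccl4 (6778) and ranked 2 for Ccl9 (101) but had 5 Ccl5 UMIs. It too was not called a doublet, and 98.1% of its tag counts were of the main tag. Without these 2 cells the log2 ratios were 3.31 for Ccl1, 3.26 for Ccl3, 2.50 for Ccl4 and 2.0 for Ccl5, against 3.19, 3.17, 2.48 and 1.58 with them.

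Most cells with Ccl3 also had Ccl4, while many cells with Ccl4 had no Ccl3. Ccl4 was also the more abundant gene. Per Ccl3 UMI, thinned cells held 5.15 Ccl4 UMIs (deficient-labelled) or 8.67 (wild-type-labelled). At a fixed cutoff the more abundant gene is detected in more cells, and the part of abundance in this asymmetry was not tested. In the deficient-labelled library 500 of 505 Ccl3-positive thinned cells also had Ccl4 (99%), against 152 of 193 Ccl3-negative cells (78.8%). In the wild-type-labelled library these were 374 of 399 (93.7%) and 477 of 605 (78.8%). The reverse was looser: Ccl3 was found in 76.7% and 43.9% of Ccl4-positive cells and in 10.9% and 16.3% of Ccl4-negative cells. At 5 or more UMIs, Ccl4 was present in 409 of the 411 Ccl3 cells of the deficient-labelled library and in 166 of 173 in the wild-type-labelled one, whereas 70.4% and 30.1% of Ccl4 cells had Ccl3. Cells with Ccl3 alone numbered 5 and 25 at 1 UMI, and cells with Ccl4 alone 140 (20.1%) and 452 (45.0%).

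**Figure D3:**
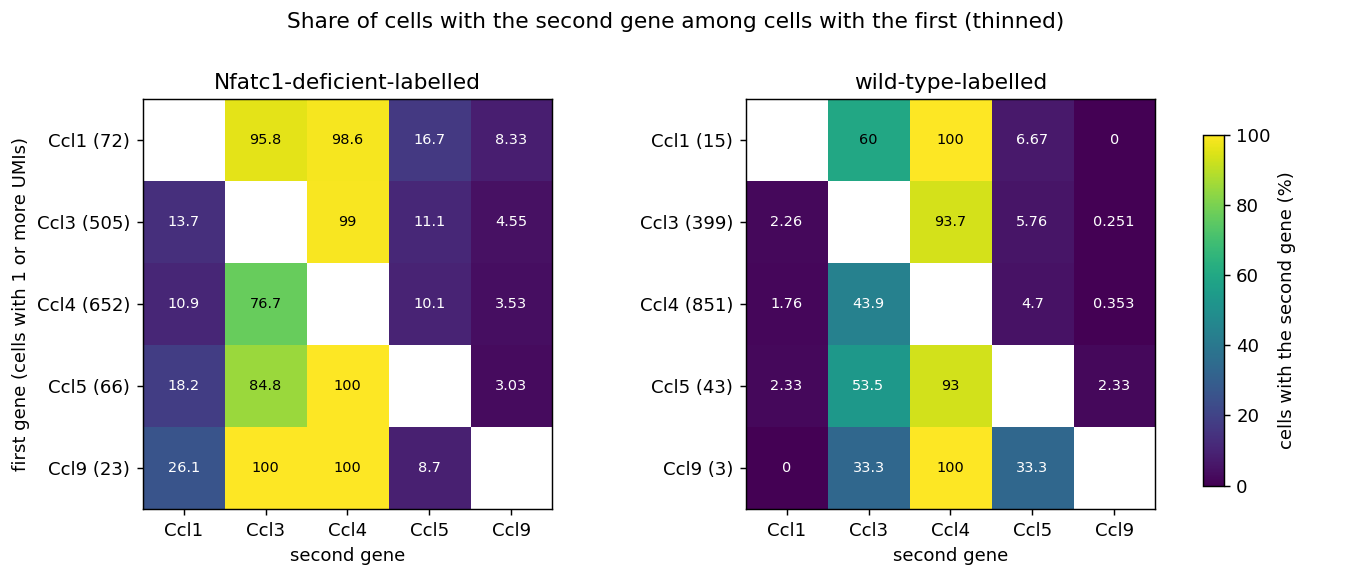
Percent of thinned cells that had at least 1 UMI of the second gene (columns) among cells with the first gene (rows, number of cells in brackets), in the Nfatc1-deficient-labelled (left) and wild-type-labelled (right) library. The Ccl4 column is 93.0% or more in every row of both panels, while the Ccl1, Ccl5 and Ccl9 columns stay at 33.3% or less.

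The share of cells with Ccl3 was higher at each step of Ccl4 in both libraries. At 0, 1 to 4, 5 to 19, 20 to 99 and 100 or more Ccl4 UMIs, Ccl3 was found in 10.9%, 22.5%, 39.5%, 64.4% and 93.1% of deficient-labelled cells. The wild-type-labelled shares over the same steps were 16.3%, 21.4%, 30.3%, 61.8% and 90.9%. The top step held 420 of 698 and 110 of 1004 cells. Among cells with at least 50 UMIs of both genes together (500 and 214 cells), Ccl3 made up a median of 13.8% (quartiles 6.13 and 20.3) of the pair in the deficient-labelled and 8.63% (quartiles 1.82 and 14.2) in the wild-type-labelled library. In 0 cells of either library did Ccl3 exceed Ccl4 in this class, and 55 and 33 such cells had no Ccl3 UMI. Over all cells, ranks of the pair went together with a Spearman rho of 0.86 (698 cells) and 0.57 (1004 cells); the cells of a value share 1 library, and depth was fixed by thinning.

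**Figure D4:**
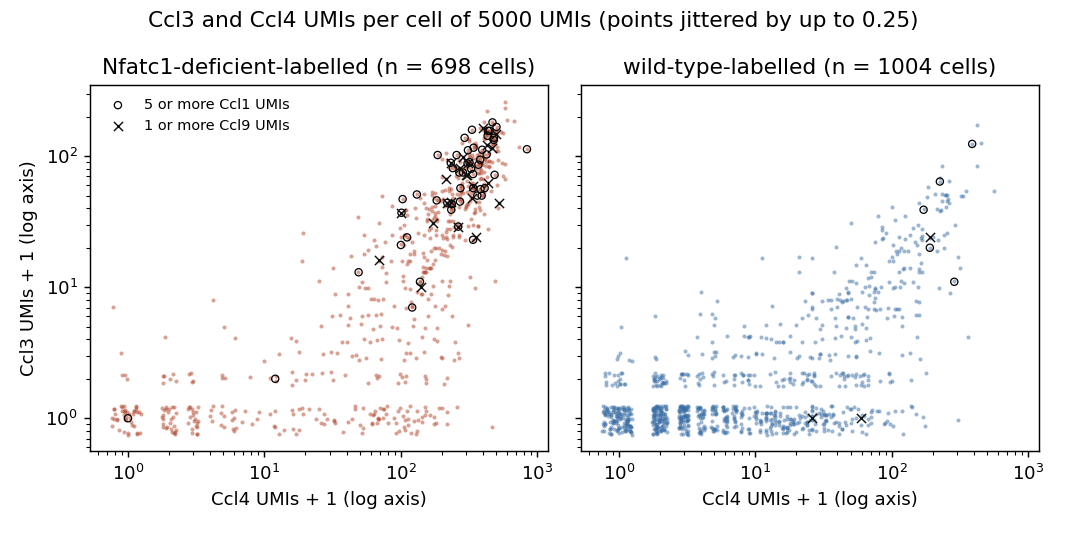
Ccl3 (vertical) against Ccl4 (horizontal) UMIs plus 1 on log axes, 1 point per cell thinned to 5000 UMIs, in the Nfatc1-deficient-labelled (left, 698 cells) and wild-type-labelled (right, 1004 cells) library; circles mark 5 or more Ccl1 UMIs and crosses 1 or more Ccl9 UMIs. Ccl3 is found mainly where Ccl4 is high, and 49 of the 50 circled cells on the left and all 5 on the right also had 5 or more Ccl4 UMIs.

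In the deficient-labelled library most cells with a restricted gene also had Ccl3 and Ccl4; in the wild-type-labelled library most had Ccl4, and fewer had Ccl3. Among cells without the restricted gene, Ccl4 was found in 92.7% to 93.2% of deficient-labelled and 84.4% to 84.7% of wild-type-labelled cells. Ccl3 was found in 69.6% to 71.4% and 39.1% to 39.8% of the same cells. Of 72 Ccl1-positive deficient-labelled cells 69 had Ccl3 and 71 had Ccl4; Ccl1 was found in 13.7% of Ccl3-positive and 1.55% of Ccl3-negative cells. All 23 Ccl9-positive cells of that library had both Ccl3 and Ccl4, and 22 of them had 100 or more Ccl4 UMIs. All 66 Ccl5-positive cells had Ccl4 and 56 had Ccl3. In the wild-type-labelled library all 15 Ccl1-positive cells had Ccl4 and 9 had Ccl3, all 3 Ccl9-positive cells had Ccl4 and 1 had Ccl3, and of 43 Ccl5-positive cells 40 had Ccl4, 3 had Ccl5 alone and 23 had Ccl3, a share of 53.5% (37.7 to 68.8) against 39.1% of Ccl5-negative cells.

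The 3 restricted genes overlapped in part. In the deficient-labelled library Ccl5 was found in 12 of 72 Ccl1-positive cells (16.7%, 8.92 to 27.3) and in 8.63% of the others. Ccl1 was found in 6 of 23 Ccl9-positive cells (26.1%, 10.2 to 48.4) and in 9.78% of the others, and Ccl5 in 2 of 23 (8.70%) and in 9.48% of the others. Before thinning, the 66 Ccl1-high and 63 Ccl5-high cells (5 or more UMIs) shared 13, that is 19.7% and 20.6% of each set, where Ccl5-high cells were 8.89% and Ccl1-high cells 9.31% of all 709. The 15 Ccl9-high cells shared 5 with the Ccl1-high (33.3%) and 2 with the Ccl5-high set (13.3%). In the wild-type-labelled library the 8 Ccl1-high and 29 Ccl5-high cells shared 1, the cell of 54307 UMIs described above. Ranks over cells gave a rho of at most 0.10 for each pair among Ccl1, Ccl5 and Ccl9 in either library; in counts this sparse no relation is read from them.

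Counted per thinned cell, the share of cells with 0 of the 5 genes was 5.73% in the deficient-labelled library and 12.5% in the wild-type-labelled one, with 1 in 20.9% and 47.8%, 2 in 54.7% and 36.7%, and 3 or more in 18.6% (15.8 to 21.7) and 3.09% (2.11 to 4.35). The pair of Ccl3 and Ccl4 with no other was the most frequent set in the deficient-labelled library (370 cells, 53.0%), and Ccl4 alone in the wild-type-labelled library (452 cells, 45.0%). All 5 genes were found in 2 and 0 thinned cells.

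The cells with a restricted chemokine had the transcripts of CD8 T cells. Of the 29 Ccl9-positive deficient-labelled cells, all 29 had Cd8b1, Cd3e, Cd3d and Trac, 28 had Cd3g and 21 had Cd8a. Of all 709 cells 96.5%, 92.8%, 97.2%, 97.6%, 88.3% and 67.1% had these genes, in the same order. The 10 myeloid markers were at 0 in the 29. Among the 680 cells without Ccl9, 51 had 1 or more of them. Lyz2, Csf1r and Adgre1 were found in 1, 6 and 2 of all 709 cells. This absence therefore does not set the 29 apart. Of the 5 dendritic cell markers 1, Zbtb46, was detected, in 6 of the 29 against 43 of all 709. The list summed to 9.23 CPM, against 4.79 CPM in the 680 cells without Ccl9, of which 53 had a marker. Flt3, Xcr1, Siglech and H2-Ab1 were at 0 in the 29 and were found in 6, 4, 0 and 7 of all 709. Mast cell genes Cpa3, Fcer1a, Ms4a2 and Mcpt4 were at 0 in all 709 cells, so their absence from the 29 does not describe these. Kit was found in 11 of 29 against 267 of all 709. Of the 66 Ccl1-high cells, 65 had Cd8b1 and all 66 had Cd3e. As in the other 643 cells, 0 had 3 or more markers of another listed cell type, so this count does not set them apart. The CD4 and gamma delta T cell lists, with 1 and 2 markers in the matrix, could not reach 3. Myeloid markers in the Ccl1-high cells summed to 3.22 CPM, against 3.57 CPM in the other cells, and dendritic markers to 6.04 against 4.87 CPM. Of the 63 Ccl5-high cells 61 had Cd8b1, and myeloid markers stood at 5.62 CPM in them (9 of 63 cells), against 3.26 CPM in the others (42 of 646). Of the 8 wild-type-labelled Ccl1-high cells 7 had Cd8b1 and all 8 had Cd3e, and myeloid markers stood at 7.04 CPM (2 of 8 cells), against 3.39 CPM in the others (71 of 1010). In the 29 Ccl5-high cells of that library they stood at 5.03 CPM, against 3.38 CPM. High cells were deeper: the median was 33424 UMIs in Ccl1-high and 20994 in the other deficient-labelled cells, and 27920 in Ccl9-high and 21346 in the others. Doublets were called for 1 of the 66 and 1 of the 15, and the part of depth and of these markers in the sets was not tested.

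The genes differed by cytokine class. Thinned cells were sorted by 5 or more UMIs of Il17a, the cytokine that defines Tc17 cells, and Ifng, that of type 1 cells. Cells with Ifng only made up 38.7% (270) of the deficient-labelled and 4.98% (50) of the wild-type-labelled library, and cells with Il17a only 18.5% (129) and 57.8% (580). The deficient-labelled cells with Ifng only held 63.0% of Ccl4, 73.6% of Ccl3, 77.5% of Ccl1, 80.8% of Ccl5 and 88.6% of Ccl9 UMIs. In the wild-type-labelled library cells with Il17a only, 57.8% of cells, held the largest part of Ccl4 and Ccl3 UMIs, 48.8% and 40.3%. Cells with Ifng only, 4.98% of cells, held 18.4% and 29.1%. Of Ccl1 UMIs 50.2% lay in 2 of the 50 cells with Ifng only and 45.9% in 4 of the 44 with both. Of Ccl5 UMIs 33.9% lay in cells with Ifng only and 37.1% in cells with Il17a only. Ccl9 had 1 UMI in each of these 2 classes and 1 in cells with neither.

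Ccl3 and Ccl4 were higher in the deficient-labelled library within each of the 4 classes. Ccl4 stood at 57917 and 25332 CPM in cells with Ifng only (2.29-fold, 2.23 to 2.35), at 43560 and 19859 CPM in cells with both cytokines (2.19-fold), at 15060 and 5791 CPM in cells with Il17a only (2.60-fold) and at 21720 and 4187 CPM in cells with neither (5.19-fold). Ccl3 stood at 13135 and 4624 CPM (2.84-fold, 2.68 to 3.02), 8474 and 2895 CPM (2.93-fold), 2372 and 551 CPM (4.30-fold) and 2545 and 349 CPM (7.29-fold) in the same order of classes. Over all thinned cells the log2 ratio was 3.13 for Ccl3 and 2.38 for Ccl4.

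For Ccl5 the counting intervals within classes all held 1. It stood at 221 and 252 CPM in cells with Ifng only (0.876-fold, 0.666 to 1.17), at 17.1 and 23.8 CPM with Il17a only (0.717-fold, 0.342 to 1.36), at 37.1 and 29.1 CPM with neither (1.28-fold, 0.839 to 1.94) and at 62.9 and 27.3 CPM with both (2.30-fold, 0.781 to 7.59). With Ifng only, 43 of 270 and 6 of 50 cells carried it, 19 and 3 of them at 5 or more UMIs. Differences inside these bounds were not detectable at this depth. The bounds treat UMIs as independent although few cells held them, so they are no full limit of what could be detected.

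Ccl1 differed between classes in a way that few cells set. It stood at 751 and 520 CPM in cells with Ifng only (1.44-fold, 1.20 to 1.75), where 52 of 270 and 2 of 50 cells carried it, and at 331 and 541 CPM in cells with both cytokines (0.613-fold, 0.440 to 0.846), where 3 of 35 and 4 of 44 carried it. With Il17a only it was found in 9 of 129 and 7 of 580 cells, at 186 and 2.41 CPM. Ccl9 was found in 17 of 270 and 1 of 50 cells with Ifng only, and in 0 of 129 and 1 of 580 cells with Il17a only, and the count of 0 allows a share of up to 2.82% (exact). The direction for Ccl1 in cells with both cytokines turned when the sorting needed only 1 UMI, to a log2 ratio of 0.98.

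**Figure D5:**
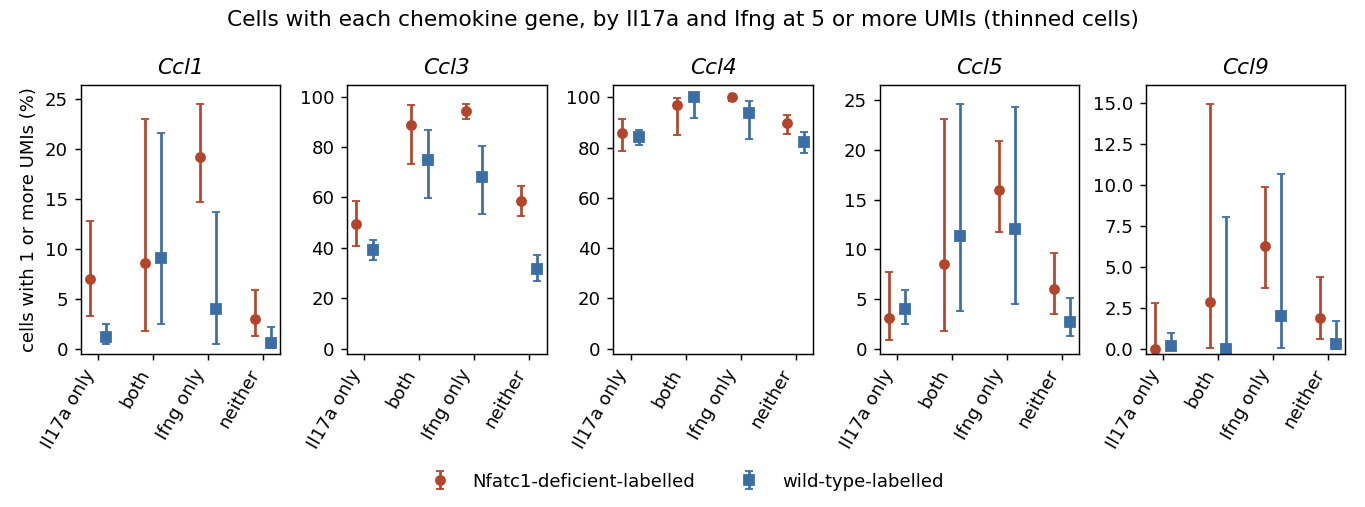
Percent of thinned cells with at least 1 UMI of each gene (vertical axis, a scale of its own per panel) by Il17a and Ifng class, with exact binomial 95% intervals as bars; circles are the Nfatc1-deficient-labelled and squares the wild-type-labelled library. Ccl3 is found in 94.4% and 68.0% of cells with Ifng only, where the intervals of the libraries are apart. With both cytokines it is found in 31 of 35 and 33 of 44 cells, where they overlap. For Ccl5 and Ccl9 the intervals overlap in every class.

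Cell-cycle phase left Ccl3 and Ccl4 in the same order. Ccl4 stood at 38794 and 7505 CPM in cells called G1, at 31562 and 6779 CPM in S and at 30179 and 5000 CPM in G2/M. Ccl3 stood at 7582 and 812, 6185 and 960, and 5471 and 474 CPM in the same phases. G2/M was called for 12.5% of cells in the deficient-labelled library and 18.2% in the wild-type-labelled one.

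The genes whose ranks over cells were most like those of Ccl4 and Ccl3, by the smaller rho of the 2 libraries among 6296 genes, were each other (0.57). For Ccl4 the next were Il2 (0.43 and 0.41 in the deficient-labelled and wild-type-labelled library), the lymphotactin gene Xcl1 (0.53 and 0.37), the surface receptor gene Slamf7 (0.39 and 0.31) and Ifng (0.63 and 0.27). For Ccl3 they were Xcl1 (0.55 and 0.32), Il2 (0.41 and 0.27), Ifng (0.65 and 0.25) and Slamf7 (0.33 and 0.22). Il17a had a rho of -0.27 with Ccl4 and -0.24 with Ccl3 in the deficient-labelled library, and of 0.10 and 0.08 in the wild-type-labelled library. For Ccl1, Ccl5 and Ccl9 the nearest genes were S100a4, Morrbid and Rnf157, each with a smaller rho of at most 0.13, from which nothing is read.

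Summed over cells, Ifng stood higher in the Ccl1-high, Ccl9-high and Ccl5-high cells of the deficient-labelled library than in its other cells, a description of sets chosen after their values were seen. Among the 66 Ccl1-high deficient-labelled cells Ifng stood at 16964 CPM against 5823 CPM in the other 643 cells, Gzmb, the cytotoxic granule protease, at 1771 against 581 CPM, and the inhibitory receptor gene Havcr2 at 176 against 57.5 CPM. The chemokine gene Ccl20, a type 17 product, stood at 11.3 against 50.7 CPM, and the proenkephalin gene Penk at 41.5 against 177 CPM. Ccl20 was carried by 3 of the 66 Ccl1-high cells and by 28 cells (3.95%) of the whole library. Few cells thus set its CPM, and no lower share of Ccl20 cells is read from it. Penk was carried by 6 of the 66, so its CPM in them rests on few cells too. The 15 Ccl9-high cells had Ifng at 24179 against 6854 CPM and the costimulatory ligand gene Tnfsf4 at 56.4 against 14.2 CPM. They had 0 Ccl20 UMIs, against 46.6 CPM in the other 694 cells. As only 3.95% of all cells of the library carried Ccl20, no absence is read from 15 cells. Ccl5-high cells had Ifng at 16479 against 6250 CPM in the deficient-labelled library; the median cell had 297 UMIs, and 48 of 63 had 5 or more. In the wild-type-labelled library the summed levels were 8628 and 1074 CPM, but the median of the 29 Ccl5-high cells was 1 Ifng UMI, 8 of them had 5 or more, and the highest had 2558.

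Of 22 other chemokine genes listed, 19 were in the matrices and 12 had a UMI. The other listed CC chemokine genes on chromosome 11 were at or near 0: Ccl6, Ccl7, Ccl8, Ccl11 and Ccl12 had 0 UMIs in both libraries, and Ccl2 had 1 and 0. Only Xcl1, at 29078 and 6035 CPM, and Ccl20, at 45.3 and 13.8 CPM (3.27-fold, 2.88 to 3.73), reached 20 CPM, and both were at least 2-fold higher in the deficient-labelled library. Ccl25 stood at 12.2 and 12.4 CPM. The interferon-induced Cxcl10 stood at 0.279 and 3.48 CPM (5 and 85 UMIs).

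The receptor genes Ccr1, Ccr3 and Ccr8 were low in the same cells. In the deficient-labelled and the wild-type-labelled library, Ccr1 stood at 1.62 and 2.0 CPM, Ccr3 at 0.391 and 1.06 CPM and Ccr8 at 0.279 and 0.532 CPM. None of the 3 reached 20 CPM in either library.

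Of 13 listed genes that act in the induction of chemokine genes or in the decay of their mRNA, 12 reached 20 CPM, 2 were at least 2-fold higher, 1 was at least 2-fold lower and 9 were within 2-fold; their median log2 ratio was 0.29. The 2 higher ones were Nfatc1 and Zfp36l1, which encodes an mRNA decay protein, at 247 and 68.3 CPM (3.61-fold, 3.41 to 3.83). The lower one was Nfatc2, another NFAT factor, at 6.48 and 24.7 CPM. Nfkb1, Rela, Jun, Fos and Irf4 were within 2-fold. Of 8 co-produced effector genes 3 were higher (Ifng, Gzmb and Cd160), 3 lower (Csf2, Il17a and Il17f) and 2 within 2-fold (Tnf and Il2), with a median log2 ratio of 0.61. Ranks of Nfatc1 over cells had a rho with each of the 5 chemokine genes between -0.06 and 0.08.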

How the data were processed

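The deposited matrices hold raw UMI counts per gene and barcode, made by the authors with Cell Ranger (7.0.0 per the file headers; build mm10 per the submitters' processing notes); whether introns were counted is not stated there. The filter asked for 500 genes or more and 10% mitochondrial UMIs or less, which kept 709 of 754 in the Nfatc1-deficient-labelled and 1018 of 1149 in the wild-type-labelled library. The 12 multiplexing tags stayed out of the totals. Counts summed per library gave CPM; 1 UMI is 0.0559 and 0.0409 CPM. Log2 ratios use a pseudocount of 1 CPM, and folds are ratios of CPM without it. Intervals are exact Poisson, Clopper-Pearson, or conditional binomial for ratios, and treat UMIs as independent. Cells were thinned without replacement to 5000 UMIs, leaving out 11 and 14 shallower cells. Doublets called by Scrublet (scanpy 1.11.5; 6 and 5 cells) were kept.

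The members, lists and markers were chosen with earlier results of these data known. Named genes are the 5 members, 4 lists, Nfatc1, the 5 genes nearest each member by the smaller Spearman rho of the 2 libraries, and, chosen after their values were seen, genes that differ in high cells. Of the receptor list 1 gene is not reported here. Alternatives used edgeR 4.0.16 and DESeq2 1.42.0 for size factors only, run in R 4.3.3, beside other filters, depths, cutoffs and pseudocounts. The rule of size and the intervals were tested on simulated counts.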

Additional observations from a re-analysis of the deposited data

Results flagged for a closer look

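Barcodes that the filter left out, most of them over the mitochondrial limit, also carried members, above the level in the left-out barcodes of the wild-type-labelled library. Ccl1 stood at 2160 CPM (1933 to 2406) in 45 deficient-labelled barcodes and 6.72 CPM (1.39 to 19.6) in 131 wild-type-labelled ones; 325 of its 329 UMIs lay in 1 barcode of 11891 UMIs with 11.4% mitochondrial UMIs. Ccl3 stood at 1077 CPM (918 to 1255) and 414 CPM (357 to 479), and Ccl4 at 2600 CPM (2350 to 2869) and 1620 CPM (1504 to 1742). Ccl4 was found in 45 of 45 and 119 of 131 of these barcodes, Ccl9 in 0 of either. The cause was not tested.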

How the results depend on the processing

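All 5 log2 ratios kept their direction under all 13 alternatives: from 2.84 to 6.81 for Ccl1, 3.06 to 3.48 for Ccl3, 2.37 to 2.62 for Ccl4, 1.49 to 2.31 for Ccl5 and 2.48 to 6.14 for Ccl9. Values outside the counting interval follow. Without the 10 highest cells of each library they were 6.81 (Ccl1), 3.48 (Ccl3), 2.62 (Ccl4), 2.31 (Ccl5) and 2.48 (Ccl9). In cells called G1 they were 4.29 (Ccl1), 3.28 (Ccl3), 2.42 (Ccl4) and 2.06 (Ccl5). As means of per-cell CPM they were 2.91 (Ccl1), 3.06 (Ccl3) and 2.37 (Ccl4), and in thinned cells 2.84, 3.13 and 2.38. Without the leading cell of each library, an alternative chosen after seeing the data, they were 3.31 (Ccl1), 3.26 (Ccl3), 2.50 (Ccl4) and 2.0 (Ccl5). Totals without the members gave 3.22 (Ccl3) and 2.53 (Ccl4), and the stricter cell filter 3.19 (Ccl3) and 2.51 (Ccl4). Median-ratio size factors gave 2.49 for Ccl4, and all deposited barcodes 2.48. A pseudocount of 5 CPM gave 3.11 (Ccl1) and 2.91 (Ccl9), and one of 0.1 CPM 6.14 (Ccl9). Genes past the rule of size numbered 127 higher and 116 lower, 249 and 370 with no floor, and 68 lower with a floor of 50 CPM. The log2 ratio of Ccl1 in cells with both cytokines was -0.71, and 0.98 when cells were sorted at 1 UMI; ratios of Ccl3 and Ccl4 within classes kept their direction. Of 272 recomputed co-expression shares 43 left their interval, and of 120 shares of cells 38, mostly with thinning depth. No paired analysis was possible because each group has 1 library. Depth and 1 library per group limit the restricted genes most: 10 wild-type-labelled Ccl9 UMIs set its ratio. The causes were not tested.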
